A study of Capra hircus with 198 samples.

Results

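The adenohypophysis is the anterior lobe of the pituitary gland, and the 6 libraries whose titles name it are described here, out of an atlas of 33 tissues from the same 6 goats. Goats 2, 3 and 6 were in lactation and goats 54, 64 and 73 were dry. All 6 animals were adult females of the Murciano-Granadina dairy breed, and each gave 1 library of every tissue. No treatment, age in years, stage of lactation, season or time of day is given by the labels, so the milking state and any such trait of the same goats cannot be told apart. RNA was total RNA, made into strand-specific libraries.

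The anterior lobe holds endocrine cells that each make a hormone or a pair of hormones: somatotrophs make growth hormone, lactotrophs prolactin, corticotrophs the precursor of adrenocorticotropin, and gonadotrophs and thyrotrophs the glycoprotein hormones, which share an alpha subunit. The hormones are folded in the endoplasmic reticulum, packed into dense granules with granins, and released on signals from the hypothalamus. Precursors such as that of adrenocorticotropin are also cut, and some peptides amidated, on their way. In ruminants growth hormone supports milk secretion, and prolactin rises with suckling or milking. The prolactin gene, PRL, was not analysed here.

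Depth was even, with 4134377 to 4568890 counts per lactation library and 3881353 to 4328025 per dry library, and 3 counts corresponded to 0.657 to 0.773 CPM, the counts scaled to library size. Assembled long non-coding RNA (lncRNA) features took 84.3% to 85.7% of the counts in these 6 libraries, and protein-coding genes 13.0% to 14.0%. Antisense lncRNAs took 41.8% to 43.8% of counts in lactation libraries, against 34.0% to 37.6% in dry libraries. KLHDC1-AS1, an antisense feature picked here after its values were seen, held 17.3% of a lactation library on average and 9.38% of a dry one (log2 fold change 1.07, adjusted p = 0.0101, edgeR, and 0.0623 without lactation goat 2). The library of dry goat 64 stood apart, with 31277 features at 1 count or more, against 26010 to 27670 in the other 5. Levels below are CPM of the library total, whereas fold changes use trimmed-mean (TMM) scaling, whose factors were 0.897 to 0.955 in lactation libraries and 1.01 to 1.16 in dry libraries.

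The label was checked against markers of the endocrine lobe. GH1, the growth hormone gene, averaged 881 ± 761 CPM over the 6 adenohypophysis libraries (SD, n = 6), and outside the pituitary its highest tissue mean was 1.76 CPM in hippocampus. POMC averaged 183 CPM against 3.53 CPM in hypothalamus, and CGA 45.6 against 0.226 CPM in cerebellar hemisphere. Other markers of the lobe set it less apart: GHRHR averaged 19.1 CPM against 12.1 CPM in medulla oblongata, and GNRHR 10.7 against 10.6 CPM in pineal gland. TSHB averaged 2.42 CPM, below the 6.25 CPM of rumen. Of 9 posterior lobe markers, LHX2 had less than 1 count in all 6 libraries, and AVP and OXT averaged under 1 CPM in each state. All 9 summed to 7.61 to 17.1 CPM in lactation and 18.8 to 20.9 CPM in dry. In neurohypophysis libraries these 9 summed to 11.5 to 15.5 CPM in lactation and 18.4 to 29.3 CPM in dry. This list therefore did not separate the lobes. The libraries labelled neurohypophysis, the posterior lobe of the same goats, carried the anterior hormones at like levels, with GH1 at 878 ± 500 CPM (SD, n = 6). Over 20746 features, no gene was called between adenohypophysis and neurohypophysis in edgeR's quasi-likelihood test with Benjamini-Hochberg adjustment at 0.05, which is a percent called of 0, and 656 had an unadjusted p under 0.05. With the goat as a block the count was also 0, with 817 at an unadjusted p under 0.05. The absence of calls with 6 libraries of each lobe does not show that the lobes are alike. As the neurohypophysis libraries carried the anterior hormones, they are read below as a second pituitary sample of each goat.

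Between lactation and dry, 516 of 18239 tested features passed an adjusted p of 0.05 in edgeR's quasi-likelihood test, 2.83% of those tested. Of these, 282 (1.55%) rose in lactation and 234 (1.28%) fell. Protein-coding genes gave 185 rises and 95 falls among 9459 tested, and assembled lncRNAs 87 rises and 126 falls among 7835. The lactation and dry CPM did not overlap for 504 of the 516, where 27.8% of all tested features were apart in this way. Genes that rose included GH1, for growth hormone, the granins SCG2, SCG3 and CHGB, and HSP90B1, a chaperone of the endoplasmic reticulum. The median absolute log2 fold change of the called features was 1.30, and the median over all tested features was -0.01. With library totals in place of TMM that median was -0.22 and the calls split into 145 rises and 524 falls, and with the lncRNA features left out they split into 134 rises and 220 falls. Leaving out 1 library lowered the count to 112 without lactation goat 2, 311 without lactation goat 3, 200 without lactation goat 6, 246 without dry goat 54, 301 without dry goat 64 and 322 without dry goat 73.

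**Figure D1:**
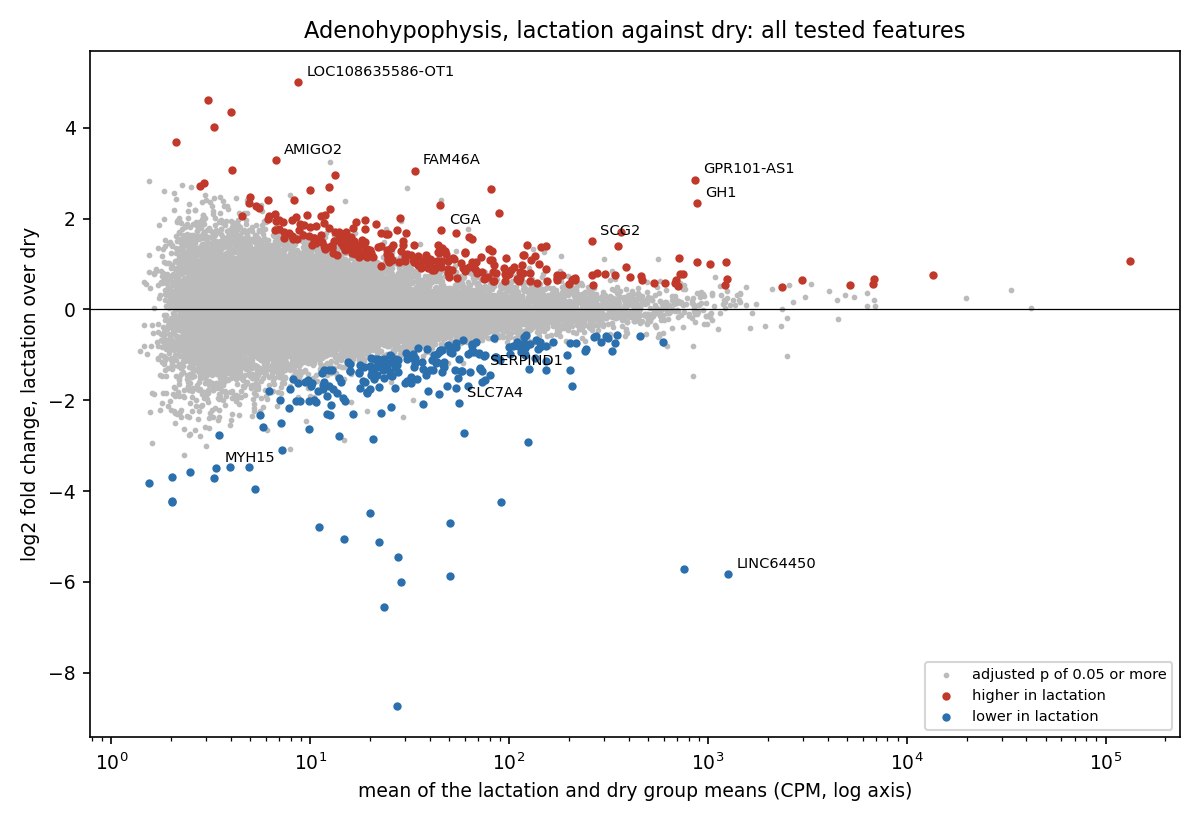
Each point is 1 of the 18239 tested features, with the mean of the lactation and dry group means (CPM, log axis) across and the log2 fold change, lactation over dry, upwards. Red points are the 282 that rose and blue points the 234 that fell at an adjusted p of 0.05. GH1 and GPR101-AS1 are high in both level and change, and LINC64450 lies far below 0.

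Growth hormone and the glycoprotein alpha subunit rose in lactation, 2 of the 6 hormone genes tested, where 1.55% of all features rose. All 6 had a positive log2 fold change, with a median of 1.34. Among protein-coding genes 5841 of 9459 were positive, with a median of 0.20. GH1 had 2004, 1661 and 650.3 CPM in lactation goats 2, 3 and 6, against 432, 156 and 383 CPM in dry goats 54, 64 and 73. Every lactation library lay above every dry library, and lactation goats 2 and 3 were well above goat 6. GH1 was 5.04-fold higher in lactation, a log2 fold change of 2.33 (SE 0.40, adjusted p = 0.0089, edgeR). Without lactation goat 2 its log2 fold change was 1.98 and the adjusted p 0.0505, and without dry goat 64 they were 1.97 and 0.0127. In bulk tissue, fewer cells of a type and less RNA per cell cannot be told apart, and this holds for each gene below. In the same libraries 10 markers of the endocrine lobe, GH1 among them, summed to 926 to 2339 CPM in lactation and 321 to 656 CPM in dry, and the 9 other than GH1 to 275 to 623 CPM in lactation and 165 to 273 CPM in dry. The 8 leukocyte markers summed to 17.7 to 25.4 CPM in lactation and 37.9 to 47.1 CPM in dry. The part of such markers in these and the later results was not tested.

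CGA, the alpha subunit shared by luteinizing hormone, follicle-stimulating hormone and thyrotropin, had 92.6, 66.4 and 45.0 CPM in lactation goats 2, 3 and 6, against 19.6, 15.5 and 34.4 CPM in dry goats 54, 64 and 73. The groups did not overlap, and lactation goat 2 was the highest of the 6. Its log2 fold change was 1.75 (SE 0.32, adjusted p = 0.0113, edgeR), and 1.43 with an adjusted p of 0.0702 without lactation goat 2. LHB, the beta subunit of luteinizing hormone, had 35.0, 29.5 and 17.7 CPM in lactation libraries, against 8.62, 15.2 and 17.6 CPM in dry ones. The groups only just failed to meet, and the log2 fold change of 1.21 (SE 0.32) did not pass (adjusted p = 0.0590, edgeR), though it passed without lactation goat 6 (adjusted p = 0.0473). POMC, the adrenocorticotropin precursor, had 138, 466 and 128 CPM in lactation libraries, against 118, 88.1 and 162 CPM in dry ones. Its groups overlapped, with lactation goat 3 far above the rest, and the log2 fold change was 1.17 (SE 0.39, adjusted p = 0.127, edgeR), and 0.32 with an adjusted p of 0.531 without lactation goat 3. FSHB and TSHB, the other beta subunits, averaged 4.12 and 3.41 CPM in lactation and 2.34 and 1.43 CPM in dry, near the floor, with adjusted p of 0.550 and 0.387.

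**Figure D2:**
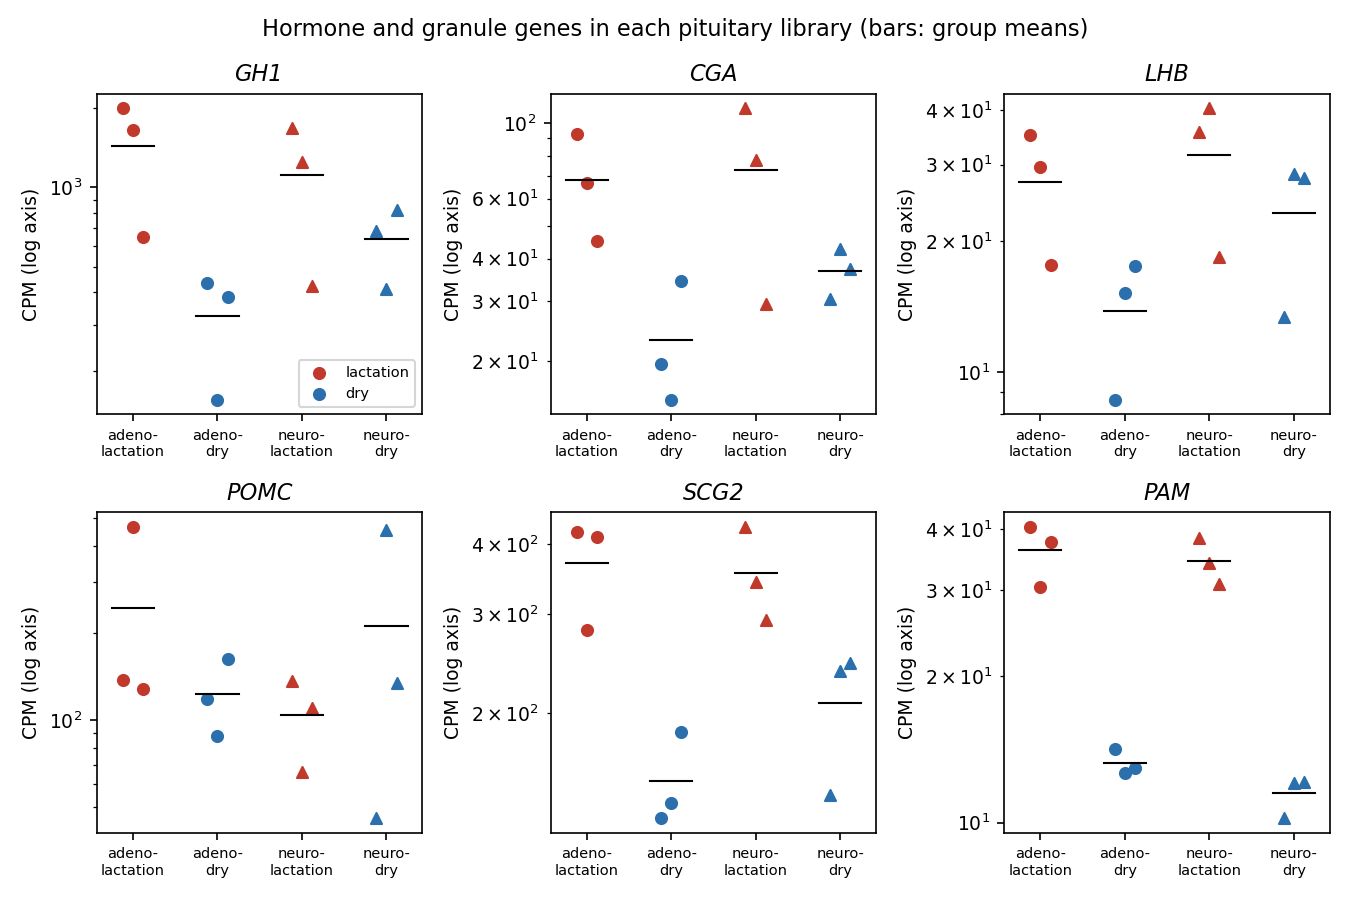
The 6 panels plot CPM (log axes, each with its own range) of GH1, CGA, LHB, POMC, SCG2 and PAM, 1 point per goat, with bars at group means. Circles are adenohypophysis and triangles neurohypophysis, and red marks lactation and blue dry. In adenohypophysis the lactation points of GH1, CGA, SCG2 and PAM all lie above the dry points, and those of POMC overlap.

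None of the 8 tested transcription factors of pituitary cell fate passed, where 2.83% of all features did. All 8 log2 fold changes were above 0, with a median of 0.85. Among protein-coding genes 5841 of 9459 were above 0, with a median of 0.20. POU1F1, which drives the growth hormone, prolactin and thyrotropin lineages, had 28.9, 20.5 and 45.0 CPM in lactation goats 2, 3 and 6, against 16.5, 7.99 and 25.2 CPM in dry goats 54, 64 and 73. The groups overlapped, and its log2 fold change was 1.10 (SE 0.38, adjusted p = 0.141, edgeR). SIX6, a homeobox factor of pituitary growth, averaged 24.6 ± 4.03 CPM in lactation and 14.3 ± 3.90 CPM in dry (SD, n = 3 each), and its groups were apart, with an adjusted p of 0.0921 from edgeR. EYA1, a transcriptional co-activator of pituitary growth, had a log2 fold change of 0.73, the homeobox factor PITX1 0.29, the gonadotroph factor NR5A1 0.17 and the endocrine factor INSM1 0.06, with adjusted p of 0.513 to 0.939 for these 4. With library totals in place of TMM the values of NR5A1 and INSM1 turned to -0.05 and -0.12, and that of PITX1 was 0.07. Without dry goat 54 the value of PITX1 was -0.04. In neurohypophysis the list leaned the other way, with a median log2 fold change of -0.29. There SIX6 and INSM1 were called of 8 tested, 1 higher and 1 lower.

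Receptors did not pass in either direction, where 2.83% of all features did. Of 6 tested receptors for hypothalamic signals, log2 fold changes ran between -0.26 for the thyrotropin-releasing hormone receptor TRHR and 0.97 for the dopamine receptor DRD2, by which dopamine restrains lactotrophs. GHRHR, the receptor for growth hormone-releasing hormone, averaged 19.0 CPM in lactation and 19.2 CPM in dry, with a log2 fold change of 0.19 (SE 0.25). Of 10 tested receptors for peripheral hormones, the progesterone receptor PGR had the highest value, 0.82 (SE 0.48). PRLR, the prolactin receptor, averaged 45.7 CPM in lactation and 32.1 CPM in dry (adjusted p = 0.105, edgeR). No member passed among 5 genes of prolactin and STAT5 signalling, 6 of the oestrogen response, inhibin and activin, 4 immediate early genes, 5 of cell division and 9 of the interferon response. With 2.83% of all features called, counts of 0 in lists this short do not set them apart.

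Of 10 tested genes of the secretory granule and prohormone processing, 4 rose in lactation and none fell, where 1.55% of all features rose. All 10 had a positive value, with a median log2 fold change of 1.40. Among protein-coding genes 5841 of 9459 were positive, with a median of 0.20. SCG2, a granin of dense-core granules, had 421, 281 and 411 CPM in lactation goats 2, 3 and 6, against 129.8, 138 and 185 CPM in dry goats 54, 64 and 73. All lactation libraries were above all dry libraries. Its log2 fold change was 1.50 (SE 0.19, adjusted p = 0.0023, edgeR). PAM, the enzyme that amidates peptide hormones, had 40.5, 30.4 and 37.7 CPM in lactation libraries, against 14.1, 12.6 and 12.9 CPM in dry ones, a log2 fold change of 1.65 (SE 0.24, adjusted p = 0.0039, edgeR). The 3 dry values of PAM lay within 2 CPM of each other.

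SCG3, a granin that helps sort cargo to granules, had 27.4, 18.7 and 32.4 CPM in lactation goats 2, 3 and 6, against 9.58, 6.44 and 7.39 CPM in dry goats 54, 64 and 73, a log2 fold change of 1.94 (SE 0.31, adjusted p = 0.0072, edgeR). CHGB, chromogranin B, had 148, 85.6 and 103 CPM in lactation libraries, against 52.2, 50.2 and 55.7 CPM in dry ones, a log2 fold change of 1.29 (SE 0.21, adjusted p = 0.0073, edgeR). For both genes the groups were apart, and lactation goat 2 was the highest of CHGB. The other 6 members, among them CHGA (1.03), the convertase PCSK1 (0.64) and the carboxypeptidase CPE (0.38), did not pass. The 4 calls were kept when any 1 goat was left out, with the highest adjusted p of 0.0424 for CHGB, and the list gave 4 or 5 calls in those 6 fits. SCG2 lies opposite SCG2-AS1, an antisense feature at 1.61% of lactation and 1.11% of dry libraries, with groups that overlapped. SCG2-AS1 had a log2 fold change of 0.75 (adjusted p = 0.0135, edgeR, but 0.0710 without lactation goat 2 and 0.0610 without lactation goat 6). With library totals its value was 0.52 (adjusted p = 0.0660, edgeR). PAM overlaps LOC102189863 and LOC108636419. No source at hand says whether strand was used in counting, so reads of such pairs cannot be told apart.

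Of the release machinery 1 gene passed, where 2.83% of all features did. SYT4, a synaptotagmin of granule membranes, was the only one of 10 tested exocytosis genes to pass, at 26.3, 22.6 and 22.5 CPM in lactation libraries, against 12.2, 6.44 and 13.6 CPM in dry ones. Its log2 fold change was 1.33 (SE 0.32, adjusted p = 0.0394, edgeR), and its call ended in each of the 6 fits without 1 goat, with adjusted p from 0.0551 without dry goat 73 to 0.145 without lactation goat 2. The median of the list was 0.03, and -0.17 with library totals. RAB3B, a small GTPase of granules, averaged 21.5 CPM in lactation and 42.2 CPM in dry, and did not pass (-0.78, SE 0.28, adjusted p = 0.152, edgeR).

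Of 16 tested genes of folding in the endoplasmic reticulum, 3 rose in lactation and none fell, where 1.55% of all features rose. All 16 values were positive, with a median of 1.04, where 5841 of 9459 protein-coding genes were positive. HSP90B1, the chaperone GRP94, had 89.1, 90.2 and 106 CPM in lactation goats 2, 3 and 6, against 44.8, 39.9 and 62.6 CPM in dry goats 54, 64 and 73. The groups were apart, the log2 fold change was 1.15 (SE 0.20, adjusted p = 0.0093, edgeR), and the call held without any 1 goat. CANX, the lectin chaperone calnexin, averaged 46.0 ± 6.89 CPM in lactation and 23.6 ± 4.02 CPM in dry (SD, n = 3 each), with a log2 fold change of 1.17 (adjusted p = 0.0142, edgeR). HSPA5, the chaperone BiP, had 53.2, 54.5 and 71.1 CPM in lactation goats 2, 3 and 6, against 41.0, 22.4 and 34.2 CPM in dry goats 54, 64 and 73, with a log2 fold change of 1.06 (adjusted p = 0.0359, edgeR). CANX lost its call without lactation goat 2 (adjusted p = 0.0775) or dry goat 54 (0.0548). HSPA5 lost it without lactation goats 2 (0.0953), 3 (0.0631) or 6 (0.135) and without dry goats 64 (0.0829) or 73 (0.0853).

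In 10 of the 16 genes every lactation library lay above every dry library, where 7.87% of all features did. They include XBP1, a transcription factor of the unfolded protein response, at 6.69 CPM in lactation and 2.64 CPM in dry (1.53, SE 0.52, adjusted p = 0.133, edgeR), and HERPUD1, of protein degradation at the reticulum, at 13.2 and 5.48 CPM (1.45, SE 0.37, adjusted p = 0.0516). With dry goat 64 left out the list gave 2 calls and a median of 0.91, and without lactation goat 2 it gave 1 call and a median of 1.03. Of the cytosolic chaperones HSP90AA1 and HSPA8 rose. HSP90AA1 averaged 147 ± 7.12 CPM in lactation and 86.0 ± 21.0 CPM in dry (SD, n = 3 each), with a log2 fold change of 0.97 (adjusted p = 0.0157, edgeR). HSPA8 averaged 83.7 ± 10.9 CPM in lactation and 46.4 ± 16.0 CPM in dry (SD, n = 3 each), with a log2 fold change of 1.04 (adjusted p = 0.0450, edgeR). They were the 2 called of 9 tested, where 2.83% of all features were called. Neither was called without lactation goat 2 (adjusted p 0.0810 and 0.179) or lactation goat 6 (0.0508 and 0.114). HSP90AA1 was also lost without dry goat 54 (0.0504), and HSPA8 without lactation goat 3 (0.0688) or dry goats 64 (0.0801) and 73 (0.0857).

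**Figure D3:**
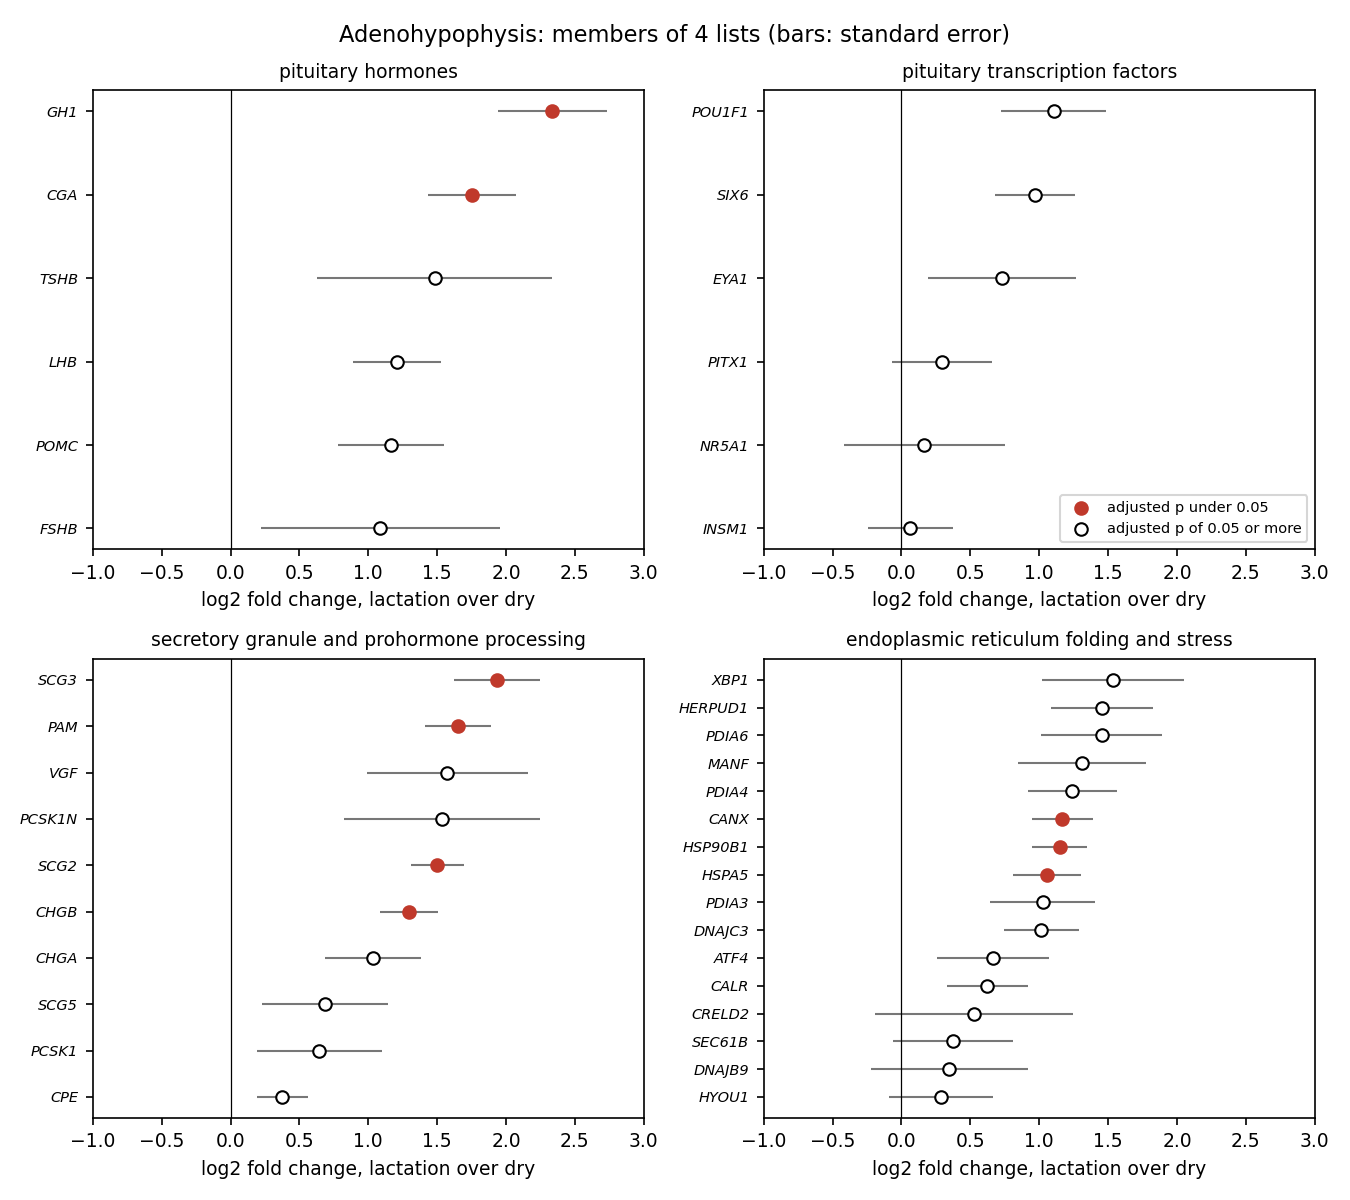
Points are the log2 fold change, lactation over dry, of tested members of 4 lists in the adenohypophysis, with 6 of the 8 transcription factors drawn, and bars are 1 standard error. Filled points had an adjusted p under 0.05: 2 hormones, no transcription factor, 4 granule genes and 3 genes of folding in the endoplasmic reticulum. All points lie right of 0, with INSM1 nearest to it at 0.06.

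Cytochrome c oxidase subunits made in mitochondria rose while the other mitochondrial genes did not pass, 3 of 12 tested, where 2.83% of all features passed. COX1 averaged 478 ± 34.6 CPM in lactation and 336 ± 20.5 CPM in dry (SD, n = 3 each), a log2 fold change of 0.71 (adjusted p = 0.0155, edgeR). COX2 and COX3 had 0.80 (adjusted p = 0.0321) and 1.23 (adjusted p = 0.0148), and COX3 overlaps ATP6. ND4, a subunit of complex I, was at 24.7 CPM in lactation and 46.1 CPM in dry (-0.68, SE 0.35, adjusted p = 0.324, edgeR). None of the 3 was called without lactation goat 2 (adjusted p 0.0840 for COX1, 0.158 for COX2 and 0.0769 for COX3) or lactation goat 6 (0.0523, 0.0661 and 0.0527). Dry goat 54 mattered to COX2 (0.0660) and COX3 (0.0533), and dry goats 64 (0.104) and 73 (0.0759) to COX2.

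FKBP5, a co-chaperone that glucocorticoids induce, was the called member of 6 in the glucocorticoid response, where 2.83% of all features were called. It had 17.1, 15.5 and 7.50 CPM in lactation goats 2, 3 and 6, against 4.79, 2.83 and 3.47 CPM in dry goats 54, 64 and 73. The groups were apart, with lactation goat 6 the nearest to dry, and the log2 fold change was 2.04 (SE 0.43, adjusted p = 0.0234, edgeR). In the mean of the other 31 tissues outside the mammary gland, neurohypophysis among them, its log2 fold change between the same goats was 1.45. Its call ended without lactation goats 2 (adjusted p = 0.114) or 3 (0.0729) and without dry goats 64 (0.0704) or 73 (0.0679).

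Among 12 tested clock genes CLOCK rose and none fell, where 1.55% of all features rose. Of the 12 values 9 were negative, with a median of -0.64, where 5841 of 9459 protein-coding genes were positive. CLOCK, a core activator of the daily clock, had 38.3, 24.9 and 32.9 CPM in lactation libraries, against 19.4, 16.2 and 16.6 CPM in dry ones, a log2 fold change of 1.08 (SE 0.25, adjusted p = 0.0362, edgeR). CRY2, a repressor of that clock, averaged 4.79 CPM in lactation and 16.0 CPM in dry, with its groups apart, and did not pass (-1.50, SE 0.46, adjusted p = 0.0975, edgeR). The time of day of sampling is not in the labels, and its part was not tested. With library totals or with the lncRNA features left out, the list gave no rise and 1 fall, with adjusted p of 0.0685 and 0.0579 for CLOCK, and DESeq2 gave 1 rise and 1 fall. CLOCK, which has an antisense feature at its locus, lost its call without lactation goats 2 (adjusted p = 0.158) or 6 (0.0976) and without dry goats 54 (0.0610), 64 (0.105) or 73 (0.101).

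Among genes with a RefSeq symbol and groups apart, the 10 with the largest rise had means of 3.90 to 59.0 CPM in lactation, GH1 apart, and 0.335 to 8.11 CPM in dry. FAM46A, a non-canonical poly(A) polymerase, had 61.9, 49.8 and 65.3 CPM in lactation goats 2, 3 and 6, against 7.43, 6.96 and 9.93 CPM in dry goats 54, 64 and 73. Its groups were 5 times or more apart, with a log2 fold change of 3.06 (SE 0.24, adjusted p = 4.3e-05, edgeR), and it overlaps LOC108636767. AMIGO2, a cell adhesion protein, had 12.8, 11.6 and 11.9 CPM in lactation libraries, against 2.64, 0.773 and 0.693 CPM in dry ones (3.29, SE 0.53, adjusted p = 0.0067, edgeR), and overlaps PCED1B. Both calls held without any 1 goat.

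GH1 is 1 of the 10, and 7 others lost their calls more readily. RND3, a small GTPase of the actin cytoskeleton, averaged 3.90 ± 0.86 CPM in lactation and 0.335 ± 0.40 CPM in dry (SD, n = 3 each), a log2 fold change of 3.68 that rests on 4 counts in dry. The others were RPLP1 of the ribosomal stalk (2.96), the ERK phosphatase DUSP6 (2.41), the polyamine enzyme SAT1 (2.41), the glycyl-tRNA synthetase GARS (2.35), HIGD1C (2.29) and MIOS (2.24), with adjusted p from 0.0175 to 0.0430 in edgeR. RPLP1 had 50.1 CPM in lactation goat 2 and 9.97 and 9.78 CPM in lactation goats 3 and 6, and ribosomal protein genes have near-identical copies that can share reads. SAT1 overlaps LOC102190942, and HIGD1C has an antisense feature at its locus. All 7 lost it in 3 to 6 of the 6 fits without 1 goat. RND3 and HIGD1C lost the call without each goat in turn, with adjusted p of up to 0.144 (without lactation goat 2) and 0.120 (without lactation goat 6). RPLP1 lost it without lactation goat 2 (0.204) or dry goats 64 (0.0950) and 73 (0.0840), SAT1 without lactation goats 2 (0.0769) and 3 (0.0583) or dry goat 54 (0.0543), and DUSP6 without any lactation goat (up to 0.0603) or dry goat 54 (0.0585). GARS lost it without any goat other than lactation goat 3, up to 0.107 without lactation goat 6, and MIOS without lactation goats 2 (0.174) and 6 (0.133) or dry goats 54 (0.123) and 64 (0.121).

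Of the 10 largest falls chosen in the same way, 2 had levels well above the floor and held without any 1 goat. SLC7A4, a member of the cationic amino acid transporter family, had 21.2, 16.2 and 21.3 CPM in lactation goats 2, 3 and 6, against 128.9, 64.7 and 84.1 CPM in dry goats 54, 64 and 73. FLRT1, a membrane protein with leucine-rich repeats, had 9.41, 10.8 and 17.9 CPM in lactation libraries, against 74.0, 48.2 and 61.7 CPM in dry ones. In both genes every dry library was over 2 times the highest lactation library, and the log2 fold changes were -2.06 (SE 0.27) and -2.08 (SE 0.28), each with an adjusted p of 0.0027 from edgeR. Both loci carry an antisense feature, and FLRT1 overlaps MACROD1 and other genes. The other 8 were MYH15, a myosin heavy chain (-3.49), ISYNA1, which makes inositol (-2.77), KCTD21 (-2.59), the tetraspanin TSPAN32 (-2.29), DPYSL4 (-2.18), the mucin MUC6 (-2.02), CAMKV (-2.01) and the metalloproteinase inhibitor TIMP4 (-2.0), with adjusted p from 0.0148 to 0.0421. Each of these 8 lost its call in 3 to 6 of the fits without 1 goat, and all 8 did so without lactation goat 2 and without lactation goat 6. Without dry goat 54 the adjusted p was 0.0688 for MYH15, 0.172 for ISYNA1, 0.0574 for KCTD21, 0.0937 for TSPAN32, 0.165 for DPYSL4, 0.0556 for MUC6 and 0.208 for TIMP4, and without dry goat 73 it was 0.0651 for CAMKV. Lactation goat 3 ended the calls of MYH15, ISYNA1, TSPAN32, MUC6 and TIMP4, dry goat 64 those of ISYNA1, TSPAN32, DPYSL4 and MUC6, and dry goat 73 also those of MYH15, ISYNA1, KCTD21, DPYSL4 and TIMP4. CAMKV overlaps LOC106503453 and TIMP4 overlaps SYN2.

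Among the lncRNA features, LOC108635586-OT1 rose most, with 21.0, 12.1 and 17.3 CPM in lactation goats 2, 3 and 6, against 1.63, 0 and 0 CPM in dry goats 54, 64 and 73. Its log2 fold change was 5.01 (SE 0.74, adjusted p = 0.0040, edgeR), and its host LOC108635586 was at 0 in all 6 libraries. TXK-IT1 (4.62), CAMK1D-IT1 (4.35) and LINC25638 (4.02) also rose, with CPM means of 5.87, 7.63 and 6.10 in lactation and 0.265, 0.408 and 0.429 in dry. The host TXK was also higher, at 6.57, 1.38 and 1.93 CPM in lactation libraries against 0, 0.773 and 0 CPM in dry ones. TXK was too low to be tested. The host CAMK1D had overlapping groups and a log2 fold change of 0.77 (adjusted p = 0.654, edgeR). The call of TXK-IT1 ended without lactation goat 2 (adjusted p = 0.0636), and that of LINC25638 without any goat other than dry goat 64, up to 0.124 without lactation goat 6. With limma-voom the calls of TXK-IT1 (0.0602), CAMK1D-IT1 (0.0948) and LINC25638 (0.0631) ended. Without the 1 dry library that had counts, the fitted value was 9.26 for LOC108635586-OT1 and 7.78 for LINC25638, sizes that depend on the small prior for the dry libraries at 0. The 4 largest falls with groups apart were intergenic features. LINC64450 had 8.91, 40.8 and 59.7 CPM in lactation libraries, against 811.4, 6453 and 192.0 CPM in dry ones, and dry goat 64 held the highest value by far. Its log2 fold change was -5.83 (SE 0.99, adjusted p = 0.0089, edgeR). LINC65207, LINC65001 and LINC63970 gave -6.54, -6.0 and -5.86, each highest in dry goat 64. Without lactation goat 2 none of the 4 passed, with adjusted p of 0.0526 for LINC64450, 0.0711 for LINC65207, 0.0920 for LINC65001 and 0.0516 for LINC63970. LINC65001 was also lost without lactation goats 3 (0.0584) or 6 (0.0688) and without dry goat 64 (0.0644). With limma-voom none of the 4 passed, with 0.0966 for LINC64450, 0.408 for LINC65207, 0.509 for LINC65001 and 0.376 for LINC63970. Without dry goat 64 the log2 fold changes were -3.67 for LINC64450, -4.87 for LINC65207, -3.48 for LINC65001 and -4.0 for LINC63970. Without lactation goat 6, the 1 lactation library with counts, LINC65207 gave -10.5, a size that depends on the prior. LINC64450 fell by 2.60 on the log2 scale in the mean of the other 31 tissues as well.

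GPR101-AS1, an antisense feature chosen here after its values were seen, had the smallest adjusted p of the whole fit. It had 1503, 1330 and 1603 CPM in lactation goats 2, 3 and 6, against 207, 289.8 and 213 CPM in dry goats 54, 64 and 73. The groups were over 4 times apart, and the log2 fold change was 2.86 (SE 0.14, adjusted p = 1.4e-07, edgeR), with an adjusted p of at most 5.3e-06 without any 1 goat. GPR101 itself, an orphan receptor whose gain of copies causes growth hormone excess in humans, had 1.09, 3.46 and 1.21 CPM in lactation libraries and no count in the 3 dry libraries. Its lactation mean was 7.93-fold a floor of 3 counts over the dry group, and GPR101 was too low to be tested. That value rests on 25 counts in lactation and leaves out the spread between goats. In neurohypophysis GPR101 had 0, 2.70 and 0.966 CPM in lactation goats 2, 3 and 6 and 0 in the dry goats. As the use of strand in counting is not stated, reads of GPR101 and GPR101-AS1 cannot be told apart. In neurohypophysis GPR101-AS1 had 1420, 1232 and 1675 CPM in lactation goats, against 143, 133 and 217 CPM in dry goats, a log2 fold change of 3.26 (adjusted p = 2.2e-09, edgeR). In the mean of the other 31 tissues, neurohypophysis among them, its log2 fold change was 0.18.

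The neurohypophysis libraries of the same goats gave 504 calls among 18466 features, 2.73%, when fitted alone. The lists shared 243 features, 47.1% of the adenohypophysis calls and 48.2% of the neurohypophysis calls, and all 243 moved the same way, where 67.1% of all features had the same sign in both. These are the same 6 animals, so the second set of libraries repeats the tissue sample and not the goats. SCG2, PAM, SCG3 and CHGB were also the 4 called of 9 granule genes tested in neurohypophysis. Other lists did not all repeat there. None of 16 genes of folding in the endoplasmic reticulum, 12 mitochondrial genes and 8 of the glucocorticoid response passed. Of 14 clock genes only NR1D1 passed, and it fell. Of 9 cytosolic chaperones HSPA8 rose, and of 9 exocytosis genes SYT4 and RAB3B passed, 1 higher and 1 lower. PAM had 38.3, 34.1 and 30.9 CPM in the lactation libraries of neurohypophysis, against 10.2, 12.1 and 12.1 CPM in the dry ones. FAM46A, AMIGO2, SLC7A4 and FLRT1 had log2 fold changes of 2.03, 3.58, -2.59 and -2.23 there. No hormone of the 6 passed in neurohypophysis, and POMC had a negative value of -0.91 there.

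The difference in the lactation effect, adenohypophysis minus neurohypophysis, was tested over 20746 features and gave no call, a percent called of 0. The smallest adjusted p was 0.995, 925 features had an unadjusted p under 0.05, and DESeq2 gave 0 calls. With the goat as a block, which uses the pairing of the lobes within an animal, GH1 and RABGAP1-OT1 passed. In the lactation goats GH1 was higher in adenohypophysis, with log2 ratios of adenohypophysis over neurohypophysis of 0.25, 0.41 and 0.62 in goats 2, 3 and 6. In the dry goats it was lower there, with -0.66, -1.40 and -1.10 in goats 54, 64 and 73. The blocked difference for GH1 was 1.55 (SE 0.17, adjusted p = 0.00044, edgeR), against 1.41 (SE 0.60, adjusted p = 0.995) without the block. The ratios of CGA and SCG2 did not split by sign: among lactation goats only goat 6 was above 0, at 0.61 for CGA and 0.49 for SCG2, and all 3 dry goats were below 0 for both. RABGAP1-OT1 had a blocked difference of 9.08 (SE 1.38, adjusted p = 0.0451, edgeR). In the fit without the block, among genes with a RefSeq symbol, by unadjusted p alone, MAN1A2 (2.65), EVI5L (2.30), RBP4 (2.08), TMEM198 (2.02) and OGDH (1.95) came first among higher differences, and MTAP (-1.95), TOR1AIP1 (-1.06), HCAR1 (-1.73), KCNQ3 (-4.12) and ILDR1 (-1.91) among lower ones.

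**Figure D4:**
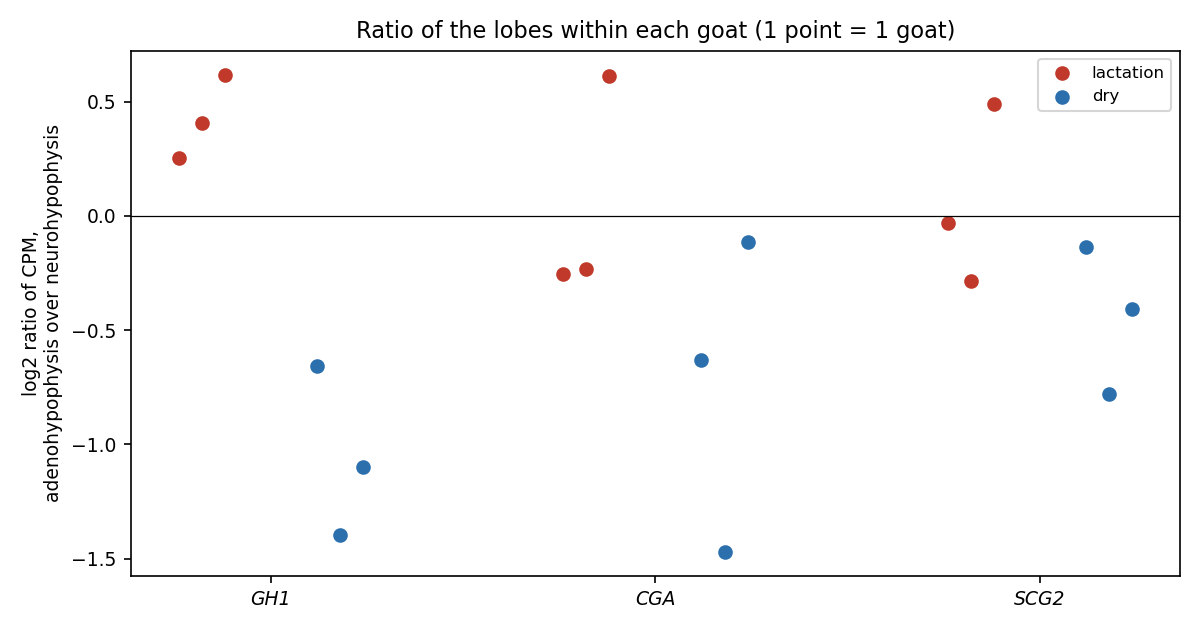
Each point is 1 goat, and the axis gives the log2 ratio of CPM, adenohypophysis over neurohypophysis, for GH1, CGA and SCG2. Red points are lactation and blue points dry. For GH1 the 3 lactation goats lie above 0 and the 3 dry goats below -0.6, and for CGA and SCG2 the states are not split by sign.

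Set against the other 31 tissues outside the mammary gland, the lactation effect of the adenohypophysis differed in no feature at an adjusted p of 0.05 (limma, 21475 features, percent called 0). The smallest adjusted p was 0.0704, and 4470 features, 20.8%, had an unadjusted p under 0.05. With library totals in place of TMM, a scaling chosen after the data were seen, 73 features passed, 5 higher and 68 lower. Of the 516 adenohypophysis calls, 179 had the same sign in the mean of the other tissues, 34.7%, where 42.6% of all features did. By place, the granule list had a median log2 fold change of 1.40 in adenohypophysis, 0.88 in neurohypophysis and -0.27 in the other tissues, and the list of folding in the endoplasmic reticulum 1.04, 0.69 and -0.22. By unadjusted p, CD164 (2.45), FAM46A (3.10), ATP6V1B2 (1.91), C4H7orf73 (2.37) and RND3 (3.18) came first among higher differences from the other tissues. FLRT1 (-3.25), SERPIND1 (-2.06), ADAM11 (-2.52), SMIM6 (-2.19) and LRRC4 (-2.05) came first among lower ones. SERPIND1, which encodes heparin cofactor II, had 39.6, 34.1 and 37.7 CPM in lactation libraries of the adenohypophysis, against 117, 94.6 and 116 CPM in dry ones, and in adenohypophysis alone it fell by 1.36 on the log2 scale (SE 0.18, adjusted p = 0.0027, edgeR), also without any 1 goat. CD164, a sialomucin, had 21.9, 14.5 and 17.2 CPM in lactation libraries, against 4.55, 5.15 and 5.08 CPM in dry ones (2.06, SE 0.33, adjusted p = 0.0071, edgeR), and its call also held without any 1 goat.

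**Figure D5:**
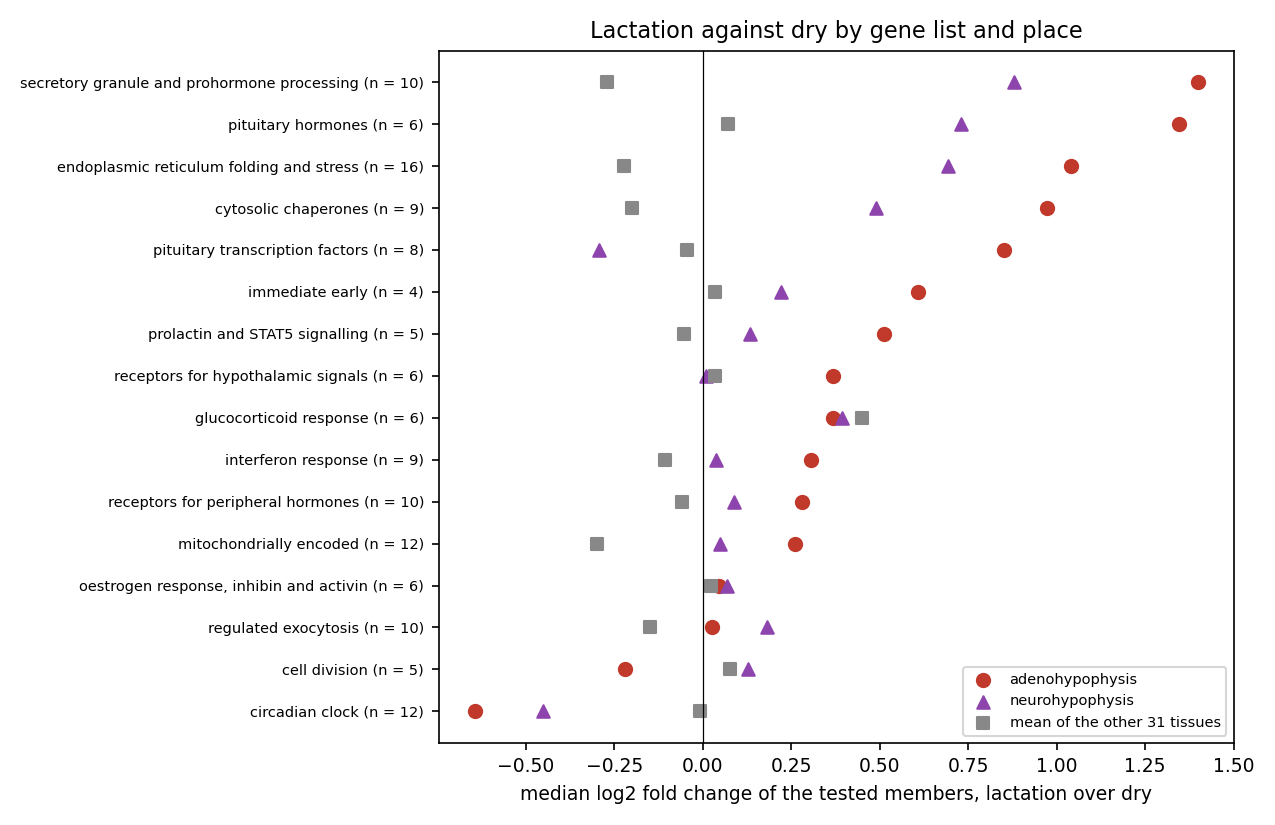
Each row is a gene list with the number of members tested in the adenohypophysis, and the axis is the median log2 fold change of those members, lactation over dry. Red circles are adenohypophysis, purple triangles neurohypophysis and grey squares the mean of the other 31 tissues. Granule genes (1.40), hormones (1.34) and folding in the endoplasmic reticulum (1.04) lie furthest right in adenohypophysis, and their grey squares lie near or below 0.

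Summed markers of most other cell types were low and leaned lower in lactation, with no call other than ALDH1A1 among the members. CPM leaned this way in general: of 18239 tested features, 3642 lay wholly below dry in lactation and 1435 wholly above. Sums of endothelium, fibroblasts, pericytes and smooth muscle, oligodendrocytes and erythrocytes overlapped between the states. A shift in cell content was not tested. The 7 endothelial markers summed to 13.5 to 22.8 in lactation and 20.6 to 36.6 in dry, the 6 fibroblast markers to 14.3 to 27.0 and 24.3 to 39.0, and the 5 markers of pericytes and smooth muscle to 12.9 to 26.1 and 22.5 to 31.9. The 5 neuron markers summed to 1.97 to 4.15 in lactation and 5.75 to 13.9 in dry, 5 oligodendrocyte markers to 3.69 to 7.88 and 7.16 to 12.6 with MAG at 0, 4 adipocyte markers to 4.71 to 11.2 and 13.8 to 22.6 with LEP at 0, and 5 of epithelium and bone to 11.1 to 15.0 and 18.5 to 24.0. The 2 erythrocyte markers in the table summed to 0.968 to 5.47 in lactation and 5.27 to 13.9 in dry. The 9 posterior lobe markers summed to 7.61 to 17.1 in lactation and 18.8 to 20.9 in dry. The 4 markers of intermediate lobe melanotrophs, POMC among them, summed to 130.1 to 477 in lactation and 96.1 to 166 in dry, and the 6 of folliculostellate and stem cells to 43.8 to 89.1 and 24.5 to 42.1. ALDH1A1, on the last list, rose (1.29, SE 0.29, adjusted p = 0.0284, edgeR), and its call ended without lactation goats 2 (0.145) or 6 (0.0953) and dry goats 54 (0.0582) or 64 (0.0782), while SOX2 and SOX9 of the same list were too low to be tested.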

How the data were processed

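Expected counts for 39734 features, 14511 of them assembled lncRNAs, were deposited by the authors as 1 table of gene counts, and a second table deposited by the authors as lengths holds, by its values, natural log offsets per gene and library. STAR, StringTie and edgeR are named in the submitters' processing notes, without versions. The genome build and any use of strand in counting are not stated there, so no coordinates or sequences are printed. Of 25223 features that are not assembled lncRNAs, 23502 matched a RefSeq symbol.

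Here the expected counts were rounded to whole numbers, 36.6% of the adenohypophysis values above 0 having been fractional. CPM were computed from library totals. The 6 adenohypophysis libraries were fitted with edgeR 4.0.16 (filterByExpr with a minimum count of 10, TMM, quasi-likelihood test, two-sided, Benjamini-Hochberg at 0.05 over all features). The labels name the goat, so replicates are animals. Neurohypophysis entered a fit of both lobes with the interaction of lobe and state. The difference from the other 31 tissues used limma 3.58.1 on log2 CPM (prior count 2, mean CPM of 1 or more), as each goat's adenohypophysis minus the mean of its other tissues. DESeq2 1.42.0 was an alternative. R was 4.3.3 and Python 3.11.15.

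The lobes come from the same goats by their labels. Deviations from group means correlated between the lobes of a goat with r of 0.06 to 0.17, and each goat correlated best with itself. Counting error limits low genes: 3 counts were taken as the floor.

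The members, gene lists and tests were chosen with earlier results of these data known. Named genes were hormones and transcription factors by role, up to 4 called members per direction of other lists, the 10 protein genes and 4 lncRNA features per direction with the largest fold change among those called with groups apart, and the 5 per direction with the smallest p for the differences between lobes and tissues. Scripts were tested on simulated counts. The deposited CPM and tissue specificity tables were not used, and a few list members are counted but not reported here by name.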

Additional observations from a re-analysis of the deposited data

Results flagged for a closer look

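With the goat as a block, the lactation effect on GH1 differed between the lobes by a log2 value of 1.55 (SE 0.17, adjusted p = 0.00044, edgeR), adenohypophysis minus neurohypophysis. The GH1 ratio of adenohypophysis over neurohypophysis was above 1 in 3 of 3 lactation goats and below 1 in 3 of 3 dry goats. Without the block the difference was 1.41 with an adjusted p of 0.995.

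RABGAP1-OT1, a low lncRNA feature, also differed between the lobes with the goat as a block, by a log2 value of 9.08 (SE 1.38, adjusted p = 0.0451, edgeR). It had 8.60, 10.5 and 9.39 CPM in adenohypophysis of lactation goats 2, 3 and 6 and 0 in their neurohypophysis. In dry goats 54, 64 and 73 it had 0, 19.8 and 12.2 CPM in adenohypophysis and 4.07, 14.9 and 15.6 CPM in neurohypophysis. The size of that log2 value depends on the small prior that stands in for the 4 libraries at 0.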

How the results depend on the processing

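The 516 calls between lactation and dry became 951 with DESeq2 (497 of them shared), 1176 with no filter on low counts and 778 with both lobes in the fit, and ranged from 112 to 322 with 1 goat left out. Limma-voom gave 503, RLE size factors 511 and the deposited offsets 420. Library totals, a scaling added after the data were seen, gave 669 (145 higher, 524 lower), and leaving lncRNA features out gave 354 (134 higher, 220 lower). Of 50 named genes called, 12 kept their call under every alternative that tested them (13 for LOC108635586-OT1, 14 for the other 11), 37 lost it without at least 1 goat, and none of the 50 changed sign. Of the genes called whose values are given, 19 lost the call with limma-voom, 9 with library totals, 6 with lncRNA features left out and 2 with the deposited offsets. Library totals ended the calls of SYT4 (adjusted p 0.0560), HSPA5 (0.0582), CLOCK (0.0685), HSPA8 (0.0639), COX2 (0.0783), MIOS (0.0517), OGDH (0.0681), ATP6V1B2 (0.0654) and SCG2-AS1 (0.0660). The deposited offsets ended those of HSPA5 (0.0649) and HSPA8 (0.0741). Limma-voom ended those of RND3 (0.120), RPLP1 (0.124), GARS (0.0716), HIGD1C (0.0743), MIOS (0.105) and 7 of the 10 largest falls outside the lncRNA features. For the difference of the lactation effect between lobes the goat as replicate block gave 2 calls against 0 without it, no filter gave 45, and leaving out 1 goat gave 0 to 1. The block left the difference between the lobes at 0 calls. Against the other tissues, library totals gave 73 calls, and the other alternatives run gave 0. The cause of these shifts was not tested. With 3 goats a state, small changes in single genes are hard to detect, and genes near the 3-count floor carry wide errors.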

Other observations

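Genes of protein synthesis, gathered by symbol after their values were seen and so given without a test of the group, were mostly higher in lactation. Of 71 tested genes of cytosolic ribosomal proteins, 18 rose and none fell, where 1.55% of all features rose. A positive log2 fold change was seen in 70 of the 71, with a median of 0.85. Over all features the median was -0.01, and over protein-coding genes it was 0.20, with 5841 of 9459 positive. The median of the ribosomal protein genes was 0.58 in neurohypophysis and -0.36 in the mean of the other 31 tissues. RPL10, of the large ribosomal subunit, averaged 36.6 ± 2.91 CPM in lactation and 15.8 ± 1.50 CPM in dry (SD, n = 3 each), with a log2 fold change of 1.42 (adjusted p = 0.0051, edgeR). The count of ribosomal protein genes called was 1 without lactation goat 2, 9 without lactation goat 3, 6 without lactation goat 6, 11 without dry goat 54, 7 without dry goat 64 and 8 without dry goat 73, and 11 with library totals. Ribosomal protein genes have many near-identical copies, so their counts may be shared.

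Of 55 tested genes with symbols of translation initiation and elongation factors, 6 rose, where 1.55% of all features did. Their median log2 fold change was 0.73. Being taken by symbol, the set also holds enzymes and regulators that are not factors, such as the kinases EIF2AK1 and EEF2K. EEF2K is among the 6. The count of rises was 2 without lactation goat 2 or lactation goat 6, 3 without lactation goat 3, dry goat 54 or dry goat 64, and 3 with library totals or the deposited offsets. EEF1A1, which brings aminoacyl-tRNA to the ribosome, averaged 938 ± 59.0 CPM in lactation and 488 ± 127 CPM in dry (SD, n = 3 each), a log2 fold change of 1.13 (adjusted p = 0.0084, edgeR). EEF2K, the kinase of elongation factor eEF2, had 21.7, 18.7 and 20.1 CPM in lactation goats 2, 3 and 6, against 3.59, 5.41 and 6.01 CPM in dry goats 54, 64 and 73, a log2 fold change of 2.21 (adjusted p = 0.0039, edgeR). Both calls held without any 1 goat. Of 15 aminoacyl-tRNA synthetases 1 rose (GARS), with a median of 0.88, and the GARS call ended in 5 of the 6 fits without 1 goat. The 158 solute carriers gave 3 rises and 2 falls, 3.16% called, near the 2.83% of all features. The 159 zinc finger genes gave 0 rises and 1 fall, 0.629% called.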
